A study of Mus musculus with 6 samples.

Results

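The nuclear genes of the mitochondrial respiratory chain were followed in sorted mouse leukaemia cells, from libraries labelled oil and libraries labelled tamoxifen. Members were chosen by gene name alone: the Nduf subunit genes of complex I, Sdha to Sdhd, the Uqcr genes with Cyc1, Cox4 to Cox8, the Atp5 genes, Cycs, and any row with the mitochondrial prefix. This rule found 85 of the 23608 rows. They comprised 37 genes of complex I, 4 of complex II, 9 of complex III, 18 of complex IV, 16 of ATP synthase and Cycs. No row with the mitochondrial prefix was in the table, so the subunits encoded by mitochondrial DNA were not analysed here. Of the 85 members, 79 passed the filter on low counts and were tested, among 11614 tested genes.

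The respiratory chain passes electrons from NADH, through complex I, and from succinate, through complex II, to ubiquinone, then through complex III and cytochrome c to complex IV, where oxygen is reduced. Complexes I, III and IV pump protons across the inner mitochondrial membrane, and ATP synthase uses their return to make ATP. Nearly all subunits are encoded in the nucleus and imported, while a small core set is made inside the mitochondrion, so both genomes must be expressed together. Blood progenitors and leukaemia cells are known to differ in how far they rely on this pathway.

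The cells came from fetal liver of Usp18+/f mice with a Cre recombinase activated by tamoxifen, were transformed with AE9a, a truncated AML1-ETO fusion carried by a GFP retrovirus, and had been passed through irradiated recipient mice. The 3 oil libraries (genotype Usp18+/f) and the 3 tamoxifen libraries (genotype Usp18+/D, 1 floxed copy meant to be removed) were made from Lin- c-Kit+ GFP+ spleen cells taken 3 days after the first injection, from 3 mice a group by the study's methods. Both groups carry AE9a, the floxed allele and the Cre. Tamoxifen without Cre was not analysed, so the drug, the activated Cre and the loss of Usp18 cannot be told apart. Usp18 itself, the targeted interferon-response regulator, had 9.12, 10.95 and 11.2 CPM (counts scaled to a common library size) in oil 1, 3 and 4, against 15.1, 28.0 and 19.4 CPM in tamoxifen 1, 2 and 4 (log2 fold change 0.998, SE 0.23, adjusted p = 0.0739). The transcript was therefore not lower where the label says that a copy was lost, and every direction given here compares labels rather than measured Usp18 loss. A count per gene does not show whether the floxed part was removed, so the deletion itself cannot be judged from this row. Without tamoxifen 4 the adjusted p of Usp18 was 0.00654, within a range of 0.00197 to 0.295 over all alternatives.

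Library totals ran from 17118964 to 20741399 counts, and 3 counts in a library amounted to 0.145 to 0.177 CPM. The 8 markers of the sorted leukaemia progenitor summed to 1931 to 2022 CPM in oil and 2125 to 2831 CPM in tamoxifen, with 1 called higher, Cd34. Kit, the receptor used in the sort, was at 439 to 781 CPM, and the transcription factors Runx1 (545 to 809), Gata2 (457 to 652), Myb (378 to 439) and Spi1 (68.2 to 97.5) were also well detected. The leukocyte marker Ptprc reached only 0.709 CPM and Mpo, a granule enzyme of myeloid cells, 0.236 CPM at most, so 2 of the 8 were near absent. Of the markers of other cells, 0 of 6 for B cells, 0 of 9 for T and NK cells and 0 of 7 for neutrophils passed the filter on low counts, and 7 of the 9 for T and NK cells stood at 0 throughout. The 10 macrophage markers summed to 5.57 to 9.74 CPM in oil and 9.83 to 24.6 CPM in tamoxifen, with 1 called higher. Among them Hmox1, Vcam1 and Cd68 were higher in every tamoxifen library than in every oil library, and the groups of the others overlapped. Hmox1 had 1.02 to 1.39 CPM in oil and 8.23, 9.56 and 2.76 CPM in tamoxifen 1, 2 and 4. The 8 erythroid markers summed to 3861 to 6010 CPM in oil and 3099 to 7426 CPM in tamoxifen, with 1 called lower. The part of these cells in the results was not tested. In bulk RNA, fewer cells of a type and less RNA per cell cannot be told apart.

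Many respiratory chain genes have promoters with sites for nuclear respiratory factor 1 (NRF1), which is a known activator of this gene class. The upstream stretches of Cycs (chr6:50566570-50566819, minus strand) and Atp5j (chr16:84834977-84835226, minus strand) are shown because they hold the NRF1 core and, in Atp5j, also a YY1 motif. They run 5′ to 3′ and end at the base before the start site, with the motif letters in capitals (RefSeq sequence, build GRCm38.p6).
Cycs: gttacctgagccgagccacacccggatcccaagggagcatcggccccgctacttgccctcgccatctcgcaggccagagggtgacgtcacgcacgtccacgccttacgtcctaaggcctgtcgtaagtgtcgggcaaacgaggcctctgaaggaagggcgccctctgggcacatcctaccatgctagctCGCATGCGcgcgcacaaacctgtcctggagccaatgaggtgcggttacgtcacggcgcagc
Atp5j: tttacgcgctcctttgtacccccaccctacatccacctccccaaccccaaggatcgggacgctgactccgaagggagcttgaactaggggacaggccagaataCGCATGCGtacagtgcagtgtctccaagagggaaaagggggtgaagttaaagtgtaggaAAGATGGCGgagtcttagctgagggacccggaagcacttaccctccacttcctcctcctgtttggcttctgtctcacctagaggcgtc
The NRF1 core, CGCATGCG, centred 57 bases before the start of Cycs and 143 bases before that of Atp5j, where the YY1 motif centred 84 bases before the start.

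Promoter sequence was matched for 69 members, in windows from 250 bases before to 50 bases after the start site, and both strands were searched for 4 motifs, none of which contains another. The NRF1 core was found in 10 of the 69 (14.5%), beside 2.07% of all 27025 genes with a promoter and 4.64% of the 9122 tested genes with one. The 10 were Atp5g2, Atp5j, Atp5k, Atp5l, Cox6a1, Cycs, Ndufa11, Ndufa8, Uqcr11 and Uqcrc1. The YY1 motif AAGATGGCG was found in 7 members (10.1%, beside 1.64% and 3.91%). The ETS motif CCGGAAGT, letters bound by GABPA, was found in 5 (7.25%, beside 4.31% and 9.93%), so its share was below that of tested genes. The estrogen-related receptor motif TCAAGGTCA was found in 2 (2.90%, beside 0.466% and 0.340%). These counts describe letters in a window and not bound sites.

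To ask whether respiratory chain transcripts differed after tamoxifen, all tested genes were fitted with edgeR and the members were read from that fit. None of the 79 tested members was called in either direction: 0 were higher, where 1.75% of all tested genes were, and 0 were lower, where 0.267% were. With backgrounds this low, counts of 0 among 79 members say little in either direction, and least for lower calls. At an unadjusted p under 0.05 there were 4 members (5.06%), namely Ndufa10, Cox7a1, Cox7a2l and Cox6b2, beside 20.6% of all tested genes. For 8 members (10.1%) the highest value of 1 group lay below the lowest of the other, of which 6 were higher and 2 lower in tamoxifen, beside 25.1% of all tested genes. The DESeq2 Wald test also called 0 members higher and 0 lower, beside 5.86% and 1.75% of its 12751 genes, and found 4 at an unadjusted p under 0.05.

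The fold changes were small and lay on both sides of 0. The median log2 fold change over the 79 members was -0.02, beside 0.00 over all tested genes, with 35 positive and 44 negative. In absolute size the median was 0.08 among members and 0.19 among all tested genes. Of the members, 73 (92.4%) were estimated within 0.25 of 0 on the log2 scale, beside 61.3% of all tested genes. The 95% interval stayed within a 2-fold change for 76 members (96.2%, beside 79.1%), and within a 1.5-fold change for 69 (87.3%, beside 56.3%). The 3 members whose intervals reached past 2-fold were Atp5g2, Cox6b2 and Cox7a1, all with few counts.

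**Figure D1:**
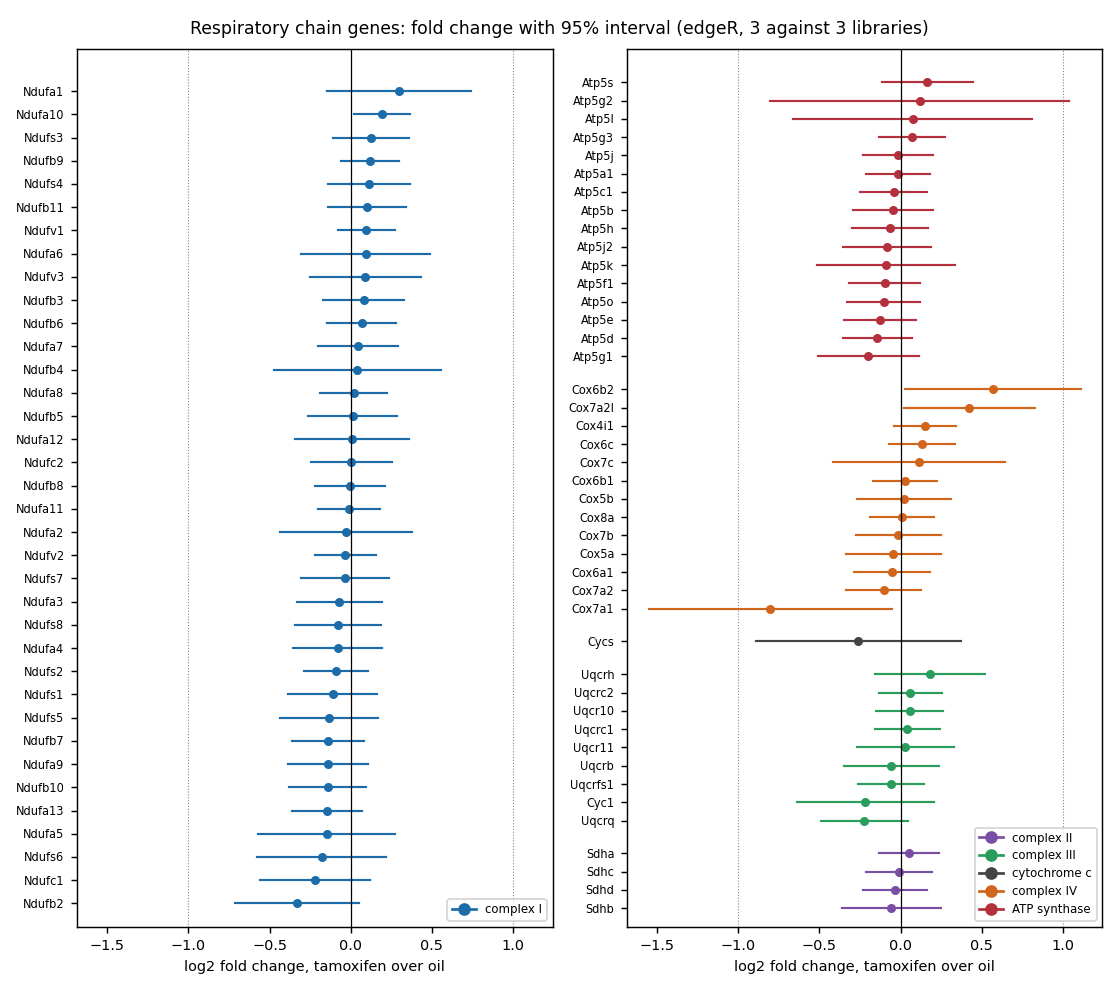
Log2 fold change of tamoxifen over oil (x axis) for the 79 tested respiratory chain genes, grouped by complex, with points for the edgeR estimate and bars for its 95% interval. Estimates run from -0.80 for Cox7a1 to 0.57 for Cox6b2, and dotted lines mark a 2-fold change, which the intervals of 3 members cross.

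The summed counts on these nuclear genes were close to the same share of the library in both groups. All 85 members together took 1.11%, 1.12% and 1.09% of the counts in oil 1, 3 and 4. The values for tamoxifen 1, 2 and 4 were 1.10%, 1.04% and 1.17%. The means were 1.11% ± 0.0150 and 1.11% ± 0.0609 (SD, n = 3 each), with 1 tamoxifen library below, 1 inside and 1 above the oil range. ATP synthase genes took the most of the complexes, with 0.466% ± 0.00364 in oil and 0.454% ± 0.0390 in tamoxifen. In that complex tamoxifen 2 was lowest at 0.416% and tamoxifen 4 highest at 0.494%, both outside the oil range. Complex IV took 0.174% ± 0.00782 in oil and 0.185% ± 0.00441 in tamoxifen (SD, n = 3 each), with all 3 tamoxifen libraries above all 3 oil libraries. The margin was narrow, from 0.181% in oil 1 to 0.182% in tamoxifen 2, and 25.1% of all tested genes separated the groups singly. This sum follows gene names, with Cox7a2l inside it and Ndufa4 under complex I, and other placements were not computed. Complex I took 0.256% and 0.254%, complex III 0.129% and 0.129%, and complex II 0.0826% and 0.0833%, each with overlapping groups. No p-value was computed for these sums.

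**Figure D2:**
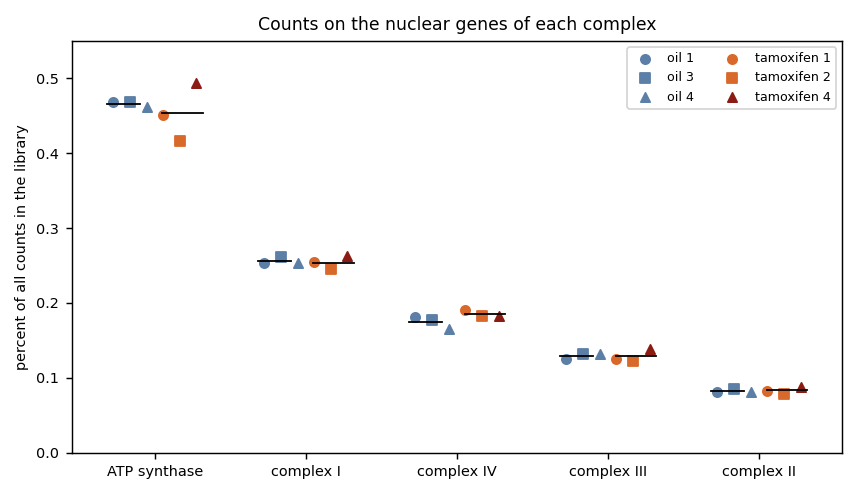
Percent of all counts in a library (y axis, from 0) that fell on the nuclear genes of each complex, with 1 symbol per library and a line at the mean of each group. ATP synthase spans 0.416% to 0.494% among the tamoxifen libraries and 0.462% to 0.468% among the oil libraries.

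Respiratory chain genes also varied less between libraries than genes did in general, most of all in tamoxifen. Their median coefficient of variation was 6.20% in oil and 8.78% in tamoxifen, beside 7.12% and 14.4% over all tested genes. The members' median level was 79.03 CPM and that of all tested genes 39.4 CPM, so counting error alone is smaller for the members. Relative to the oil mean, the spread (SD) of the members' log2 shifts was 0.25 in tamoxifen 1, 0.26 in tamoxifen 2 and 0.17 in tamoxifen 4. Over all tested genes the same spreads were 0.63, 0.71 and 0.41, so tamoxifen 4 lay nearer to the oil libraries than the other 2 did, among members and among all genes.

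Complex I takes electrons from NADH and is the largest of the complexes. Its 36 tested members had a median log2 fold change of -0.01, with 17 positive and 19 negative. Ndufa10 (chr1:92439010-92473860), an accessory subunit of the membrane arm, was at 162, 159 and 154 CPM in oil and at 182, 178 and 184 CPM in tamoxifen 1, 2 and 4. All tamoxifen libraries were above all oil libraries by a narrow margin (log2 fold change 0.19, SE 0.07, adjusted p = 0.212 in edgeR). Ndufa1 (chrX:37187588-37191163), a small membrane subunit needed for assembly, had 28.4, 32.2 and 26.5 CPM in oil and 41.2, 40.7 and 25.1 CPM in tamoxifen. Here tamoxifen 1 and 2 were high and tamoxifen 4 was below every oil library (0.30, SE 0.19, adjusted p = 0.397).

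Ndufb2 (chr6:39592574-39603382), another membrane-arm subunit, had 28.5, 32.2 and 31.0 CPM in oil and 18.4, 28.5 and 26.1 CPM in tamoxifen. The groups did not overlap, although oil 1 and tamoxifen 2 were nearly level, and the log2 fold change was -0.33 (SE 0.17, adjusted p = 0.295). Ndufc1, also of the membrane arm, averaged 29.7 ± 0.663 CPM in oil and 25.6 ± 4.95 CPM in tamoxifen (SD, n = 3 each), for a fitted change of -0.22 on the log2 scale (adjusted p = 0.410). Ndufb6, Ndufb9 and Ndufv1 were the other complex I members whose groups did not overlap, with log2 fold changes of 0.07, 0.12 and 0.10. Ndufv1 carries the NADH-binding site, and none of these 3 had an adjusted p under 0.407. Ndufb7 and Ndufa4 had the highest levels per length of the complex I names, and Ndufa4, by name a complex I gene, is now placed in complex IV. Their log2 fold changes were -0.14 and -0.08 (adjusted p = 0.422 and 0.709).

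Complex II is succinate dehydrogenase, the enzyme shared with the tricarboxylic acid cycle, and has no mitochondrially encoded subunit. Its 4 genes had the smallest median absolute log2 fold change of the complexes, 0.04. Sdha, the flavoprotein that oxidises succinate, had a log2 fold change of 0.05 (95% interval -0.13 to 0.23). Sdhb, the iron-sulfur subunit, had -0.06 (-0.36 to 0.25), and the membrane anchors Sdhc and Sdhd had -0.01 (-0.21 to 0.19) and -0.03 (-0.23 to 0.16).

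Complex III oxidises ubiquinol and reduces cytochrome c. Its 9 genes had a median log2 fold change of 0.03, with 5 positive and 4 negative. Cyc1 (chr15:76343523-76346260), the haem-bearing cytochrome c1, had 210, 224 and 254 CPM in oil and 153, 180 and 258 CPM in tamoxifen 1, 2 and 4. Tamoxifen 1 and 2 were below all oil libraries and tamoxifen 4 was above them all (-0.22, SE 0.18, adjusted p = 0.503). Uqcrh (chr4:116066965-116075071), the hinge protein that helps cytochrome c to dock, had 88.0, 101 and 94.4 CPM in oil and 113, 125 and 83.6 CPM in tamoxifen. The pattern was the opposite of that of Cyc1, with tamoxifen 1 and 2 high and tamoxifen 4 below the oil range (0.18, SE 0.15, adjusted p = 0.484). Uqcrq, a small ubiquinone-site subunit, had -0.22 (SE 0.12, adjusted p = 0.309). The core proteins Uqcrc1 and Uqcrc2 had 0.04 and 0.06, with intervals inside 1.5-fold.

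Cycs (chr6:50562563-50566538), somatic cytochrome c, carries electrons from complex III to complex IV and takes part in apoptosis once released. It had 4.28, 4.26 and 5.25 CPM in oil and 2.63, 3.90 and 4.97 CPM in tamoxifen. The groups overlapped, since tamoxifen 4 lay inside the oil range (log2 fold change -0.26, 95% interval -0.89 to 0.37, adjusted p = 0.590). This row is low for so central a gene, and part of its sequence is shared with other loci, as described with the levels.

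Complex IV is cytochrome c oxidase, and it holds the largest fold changes of the pathway in both directions, in genes of low abundance. Several of its subunits exist as tissue isoforms, and in these cells the ubiquitous forms carried the counts. Cox4i2 had 0, 0 and 1 counts in oil, and tamoxifen gave 0, 0 and 1. Cox6a2, the heart and muscle form, was at 0 in every oil library and at 1, 0 and 4 counts in tamoxifen. Cox7b2, Cox8b and Cox8c had 0 counts in all 6 libraries, which allows up to 0.177 CPM each, for counting error only. Ndufa4l2, an NDUFA4 paralog, had 1, 0 and 5 counts in oil, against 0, 0 and 0.5. Against these, the partner isoforms Cox4i1, Cox6a1, Cox7b and Cox8a were at 562, 498, 95.4 and 312 CPM per kilobase of exon.

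Cox7a1 (chr7:30184144-30186078), the muscle form of subunit 7a, had 2.81, 4.56 and 3.09 CPM in oil and 2.58, 1.42 and 1.99 CPM in tamoxifen. Every tamoxifen library was below every oil library, at levels of 24 to 94 counts. The log2 fold change was -0.80 (SE 0.33, 95% interval -1.55 to -0.05), and it was not called (adjusted p = 0.226, and 0.114 to 0.920 over the alternatives). Cox7a2, the ubiquitous form, averaged 78.5 ± 7.75 CPM in oil and 73.1 ± 4.11 CPM in tamoxifen (SD, n = 3 each), for a fitted change of -0.10 on the log2 scale (adjusted p = 0.562).

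Cox6b2 (chr7:4751792-4753094), the form of subunit 6b best known from testis, had 4.61, 6.98 and 5.87 CPM in oil and 7.90, 10.9 and 7.18 CPM in tamoxifen. The groups did not overlap, and the log2 fold change was 0.57 (SE 0.24, 95% interval 0.03 to 1.11, adjusted p = 0.232). Its ubiquitous partner Cox6b1 had 0.03 (95% interval -0.17 to 0.22). The difference between the 2 isoforms was not tested.

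Cox7a2l (chr17:83501918-83517330) encodes a relative of subunit 7a that joins complexes III and IV into supercomplexes. It had 146, 163 and 148 CPM in oil and 224, 242 and 146 CPM in tamoxifen 1, 2 and 4. Tamoxifen 1 and 2 were far above the oil libraries, and tamoxifen 4 was among them. The log2 fold change was 0.42 (SE 0.18, adjusted p = 0.232). Cox4i1, the ubiquitous regulatory subunit, was at 423, 409 and 390 CPM in oil and 473, 458 and 427 CPM in tamoxifen, with groups that did not overlap and a log2 fold change of 0.15 (SE 0.08, adjusted p = 0.331).

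ATP synthase makes ATP from the proton gradient. Of its 16 genes 12 had negative log2 fold changes and 4 positive, with a median of -0.05 and none whose groups did not overlap. Atp5b, the catalytic beta subunit and the most abundant member, had 1820, 1767 and 1745 CPM in oil and 1701, 1527 and 1938 CPM in tamoxifen 1, 2 and 4. Tamoxifen 1 and 2 were below the oil libraries and tamoxifen 4 above (-0.05, 95% interval -0.29 to 0.20, adjusted p = 0.819). Atp5a1, the alpha subunit, had -0.02 (-0.21 to 0.18). Atp5g1 and Atp5d, for a c-ring copy and the delta subunit, had the lowest values of the complex, -0.20 and -0.14 (adjusted p = 0.413 and 0.391). Atp5s, a coupling factor, and Atp5g2, a further c-ring gene, had the highest, 0.17 and 0.12 (adjusted p = 0.446 and 0.877). The third c-ring gene, Atp5g3, had 0.07 (95% interval -0.13 to 0.27).

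Library tamoxifen 4 decided which members passed the threshold. Without it 13 members were called, 5 higher and 8 lower, beside 19.2% of all 11851 genes then tested called higher and 17.1% called lower. The higher ones were Cox6b2 (0.68), Cox7a2l (0.62), Ndufa1 (0.50), Uqcrh (0.33) and Ndufa6 (0.27). The lower ones were Cyc1 (-0.46), Ndufc1 (-0.37), Atp5g1 (-0.34), Uqcrq (-0.31), Ndufa9 (-0.24), Sdhb (-0.22), Ndufb7 (-0.22) and Atp5j2 (-0.22). All 13 had the same sign in the fit of all 6 libraries. Tamoxifen 4 lay on the other side of the oil mean for 11 of the 13, and inside the oil range for 5. These 13 were called only with tamoxifen 4 left out, so where it lies is partly set by that choice. The shares of all genes, 19.2% and 17.1%, are larger than the members' own shares. The direction of these members is fixed by the same tamoxifen 1 and 2 values.

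The adjusted p of Cox7a2l was 0.000372 without tamoxifen 4 and 0.161 to 0.670 over the other alternatives. For Ndufa1 these were 0.00639 and 0.377 to 0.847, and for Cyc1 0.00655 and 0.444 to 0.883. Leaving out any of the other 5 libraries called 0 members, with smallest adjusted p-values from 0.284 to 0.410. Those fits called only 8 to 16 of all genes higher and 0 lower, so their count of 0 says little about the members. So no member was called in every fit, and each of the 13 calls rested on leaving out a single library. Cd34, a progenitor marker, also separated the tamoxifen libraries, with 8.43 to 11.7 CPM in oil and 113, 134 and 41.8 CPM in tamoxifen 1, 2 and 4. Its part in the members' values was not tested.

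**Figure D3:**
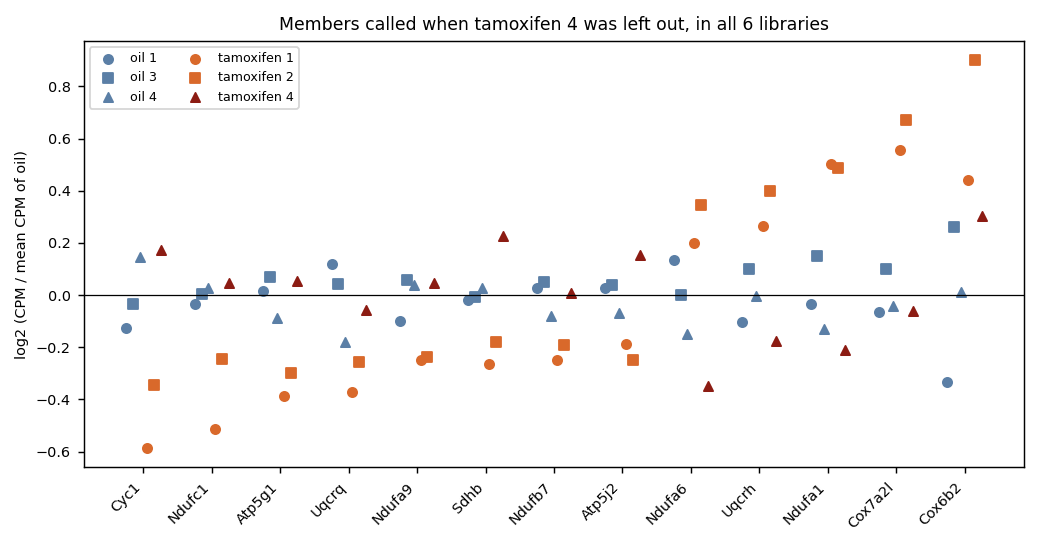
Log2 ratio of CPM to the mean CPM of the oil libraries (y axis) for the 13 members called when tamoxifen 4 was left out, with 1 symbol per library. Tamoxifen 1 and 2 lie together away from 0, while tamoxifen 4 lies on the other side of the oil mean for 11 of the 13, the exceptions being Uqcrq and Cox6b2. The choice of these 13 favours genes in which tamoxifen 4 differs from tamoxifen 1 and 2.

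Levels were compared between genes as CPM per kilobase of annotated exon. Atp5b (913), Cox4i1 (562), Cox6a1 (498), Atp5a1 (434) and Atp5o (415) were the highest of the 79. Atp5o is uncertain, since 77.0% of its 100-base windows also occur in an overlapping gene. The medians were 156 for complex IV, 135 for ATP synthase, 128 for complex III, 110 for complex II and 56.5 for complex I. Rows of 1 complex differed widely in level, from 2.03 for Atp5g2 to 913 for Atp5b in ATP synthase. Atp5g1 and Atp5g3, the other c-ring genes, were at 6.94 and 220, so a single row need not give the level of a subunit. Complex II was the most even, from 60.2 for Sdhc to 136 for Sdhd.

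The lowest rows were Cycs (1.35), Atp5g2 (2.03), Atp5l (3.97), Cox7a1 (5.12) and Ndufb2 (6.27). Low rows were often those whose transcript is repeated in the genome. For each member the 100-base windows of its longest-coding transcript were looked up in the transcripts of genes at other places (GENCODE M21, GRCm38). At least 20% of the windows were shared for 7 members: Atp5g2 (86.4%), Atp5l (61.3%), Cox7c (44.4%), Ndufa12 (38.3%), Ndufb4 (33.4%), Atp5h (29.5%) and Cycs (24.7%). Nearly all the partners are processed pseudogenes, which are copies of spliced mRNA put back into the genome. The median level of these 7 was 7.38 CPM per kilobase, with 5 of them under 15. The other 72 members had a median of 94.4, with 5 under 15. Just below the cut were Ndufs3 (19.9%) and Ndufs5 (19.8%), at 39.4 and 30.9 CPM per kilobase. Annotated exon length also enters these values, and Atp5g1 (4912 bases) and Ndufb2 (4375 bases) have long unions of exons. How the authors treated reads that map to several places is not given in the sources used here, and its part in the low levels was not tested.

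**Figure D4:**
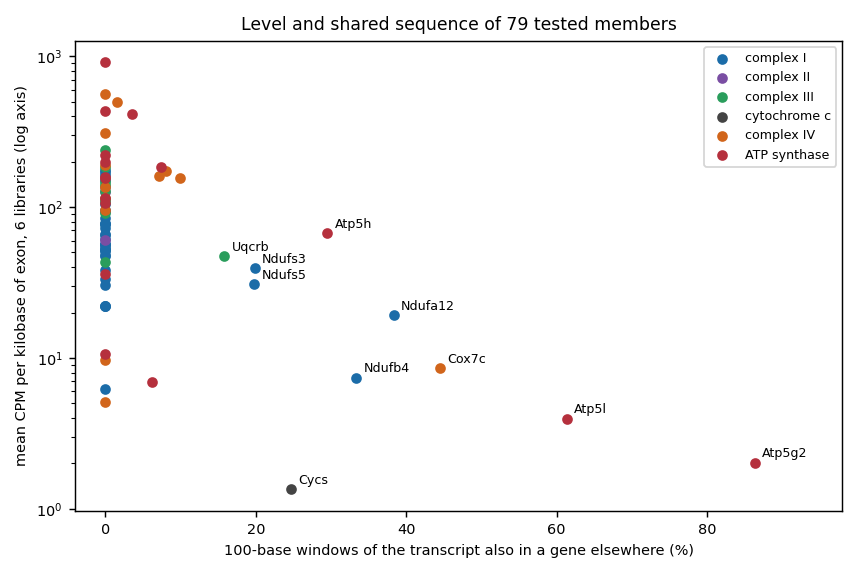
Mean CPM per kilobase of exon over the 6 libraries (y axis, log scale) against the percent of 100-base transcript windows also found in a gene elsewhere (x axis), with 1 point for each of the 79 tested members. The 7 members at 20% or more run from 1.35 to 67.0 CPM per kilobase, while 62 members share no window.

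For Cox7c and Ndufs5 a pseudogene was itself a row of the table with many counts. Their coding sequences are shown because much of each also stands in the pseudogene. The stretch in capitals is the longest run that is the same in the pseudogene. For Cox7c (chr13:86044816-86046904, minus strand) this is the whole coding sequence of 192 bases, found in Gm12338 (chr11:75599763-75599954, minus strand). For Ndufs5 (chr4:123712710-123718202, minus strand) it is 214 of 321 coding bases, of which the first 300 are printed, and BC002163 (chr16:42955631-42955949, plus strand) matches 98.8% of the coding sequence.
Cox7c: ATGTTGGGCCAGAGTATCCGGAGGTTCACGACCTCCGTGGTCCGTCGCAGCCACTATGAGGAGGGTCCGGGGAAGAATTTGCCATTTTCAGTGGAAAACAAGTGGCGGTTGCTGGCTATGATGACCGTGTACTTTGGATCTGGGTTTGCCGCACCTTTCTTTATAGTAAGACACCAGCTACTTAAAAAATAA
Ndufs5: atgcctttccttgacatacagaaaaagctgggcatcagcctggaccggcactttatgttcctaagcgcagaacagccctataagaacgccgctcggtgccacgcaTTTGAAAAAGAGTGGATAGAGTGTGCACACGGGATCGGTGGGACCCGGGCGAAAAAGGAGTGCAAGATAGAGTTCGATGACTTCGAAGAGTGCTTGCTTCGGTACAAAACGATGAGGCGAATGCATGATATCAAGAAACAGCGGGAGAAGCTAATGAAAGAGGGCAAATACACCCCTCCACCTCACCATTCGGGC
Both are shown 5′ to 3′ on the coding strand, from GENCODE M21.

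The row Gm12338 held more counts than Cox7c in every library. Cox7c, a small integral subunit of complex IV, had 198, 137 and 197.5 counts in oil, while tamoxifen gave 215.5, 165 and 156. Gm12338 had 701.5, 852.5 and 740.5 counts in oil, against 755.5, 639.5 and 606.5 in tamoxifen, which is 3.51 to 6.22 times the gene's own. Cox7c thus held 13.8% to 22.2% of the counts of both rows, and its level cannot be read from its row alone. Neither row was called (Cox7c 0.11, 95% interval -0.42 to 0.64; Gm12338 -0.08, -0.33 to 0.17).

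Ndufs5, a complex I subunit, had 551.5, 549.5 and 502 counts in oil, against 488, 374 and 492 in tamoxifen. BC002163 had 655, 665 and 595.5 counts in oil, against 547, 458 and 554 in tamoxifen, or 1.12 to 1.22 times the gene's own. Both rows were lowest in tamoxifen 2, and the ratio of this pair varied less between libraries than that of Cox7c and Gm12338. Their log2 fold changes were -0.13 and -0.19 (adjusted p = 0.558 and 0.370).

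**Figure D5:**
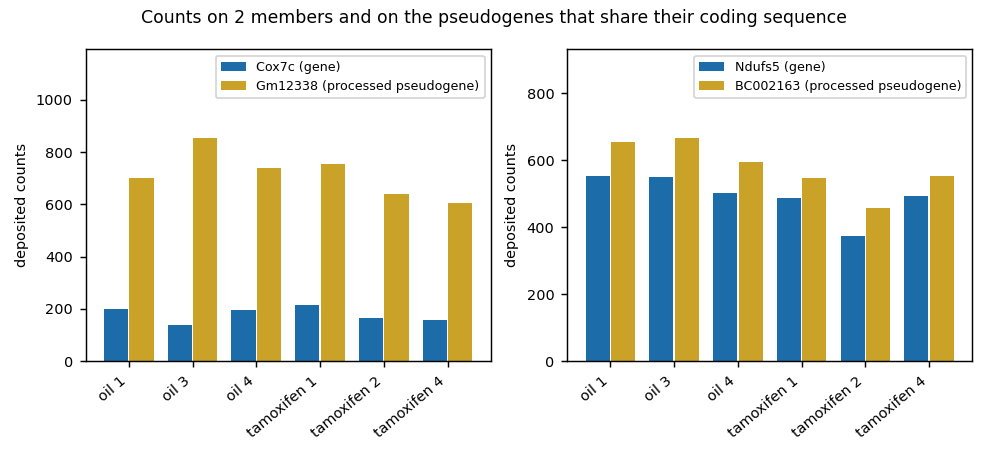
Deposited counts per library (y axes, from 0) on Cox7c beside Gm12338 and on Ndufs5 beside BC002163. The pseudogene row is the higher of each pair in all 6 libraries, by 3.51 to 6.22 times for Cox7c and by 1.12 to 1.22 times for Ndufs5.

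The genes that build, regulate and feed the chain were read from the same fit. Of the 48 assembly factors tested, 0 were called higher and 0 lower, beside 1.75% and 0.267% of all tested genes. Their median log2 fold change was -0.06. Of 30 genes for expression and copying of mitochondrial DNA, likewise 0 and 0 were called, with a median of -0.05. Polg, the catalytic subunit of the mitochondrial DNA polymerase, was lower in all tamoxifen libraries than in all oil libraries, at 97.0 ± 9.35 CPM and 123 ± 7.65 CPM (SD, n = 3 each), and just missed the threshold under DESeq2 (edgeR log2 fold change -0.35, adjusted p = 0.125, DESeq2 adjusted p = 0.0527).

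Of 11 tested regulators of respiratory gene transcription, 0 were called higher and 0 lower, beside 1.75% and 0.267% of all tested genes. Their median was -0.04. Nrf1, which encodes the factor of the NRF1 core motif, had 79.5, 72.2 and 79.5 CPM in oil and 57.6, 53.8 and 72.0 CPM in tamoxifen. Tamoxifen 4 was only just below the lowest oil library, and the log2 fold change was -0.33 (SE 0.12, adjusted p = 0.198). Without tamoxifen 4 its adjusted p was 0.00229, and the highest over the alternatives was 0.624. The 10 members with the NRF1 core had a median log2 fold change of 0.00, with 5 positive and 5 negative. The 7 with the YY1 motif had -0.08, with 6 negative. Tfam, which packages and transcribes mitochondrial DNA, had -0.08 (95% interval -0.39 to 0.24), Gabpa had -0.04 (-0.22 to 0.15) and the coactivator Ppargc1b had 0.17 (-0.20 to 0.53). Ppargc1a did not pass the filter on low counts.

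Electrons can also enter the chain at ubiquinone beside complexes I and II, and this list held the only calls of the pathway lists. Of its 7 tested genes, 1 was higher and 1 lower, beside 1.75% and 0.267% of all tested genes. The DESeq2 test gave the same counts, beside 5.86% and 1.75% of its genes. A list of 7 genes is too short to set against these shares, and no set test was run. Sqor, the sulfide:quinone oxidoreductase, had 93.8, 84.6 and 83.4 CPM in oil and 34.9, 32 and 55.1 CPM in tamoxifen 1, 2 and 4. It fell in all tamoxifen libraries, least in tamoxifen 4 (log2 fold change -1.10, SE 0.19, adjusted p = 0.0399). Prodh, the proline dehydrogenase, had 10.9, 16.3 and 14.7 CPM in oil and 26.1, 34.6 and 26.3 CPM in tamoxifen. It rose in all 3 tamoxifen libraries (1.05, SE 0.19, adjusted p = 0.0399). Both were close to the threshold: leaving out any library but tamoxifen 4 gave adjusted p-values of 0.0964 to 0.204 for Sqor and 0.104 to 0.194 for Prodh, with fold changes of the same direction.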

How the data were processed

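RNA from sorted cells was sequenced as paired-end libraries on an Illumina NovaSeq instrument. Estimated counts for each gene symbol were deposited, which can be fractional and are not scaled between libraries, and the submitters' processing notes name STAR, DESeq2 and mm10. The counting program, annotation, strand setting and treatment of multi-mapping reads are not given in the sources used here. Without strand, overlapping genes share reads. A spreadsheet had turned 26 symbols into dates, and these rows stayed in the library sizes. Libraries carry the numbers of the table's columns, which differ from those of the sample titles. All per-sample columns were used. Replicates differed by more than counting noise (chi-square per degree of freedom of at least 7.30 within a group).

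Counts were rounded and analysed in R 4.3.3 with edgeR 4.0.16 (filterByExpr, TMM, quasi-likelihood F test, no block), with Benjamini-Hochberg adjustment over 11614 genes and calls at an adjusted p under 0.05. CPM divides a count by the summed tested genes of its library after TMM scaling. Standard errors derive from the F statistics. Alternatives were DESeq2 1.42.0, limma-voom (limma 3.58.1), other scalings and filters, a replicate block and each library left out. Scripts were tested on simulated data. Members follow gene names, but they, the pathway lists and the tests were chosen with earlier results of these data known. Genes named are Usp18, the 2 highest and 2 lowest fold changes and the 2 most abundant genes of each complex, isoform families, regulators and called list genes. Members with groups that did not overlap or called without 1 library, the pseudogenes, Polg, and the genes of the closing section were named after their values were seen. Limits from counts of 0 cover counting error only: the reads carry no molecular identifiers, so duplicates were not told apart.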

Additional observations from a re-analysis of the deposited data

How the results depend on the processing

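The count of called members was 0 higher and 0 lower under every alternative except leaving out tamoxifen 4, where it was 5 and 8, so with 1 library left out in turn these counts ran from 0 to 5 and from 0 to 8. The cause was not tested. The median change of the members ran from -0.05 to 0.01 over these and moved under no alternative by more than its spread between libraries (SD 0.05). Over all genes, 203 were called higher and 31 lower as reported, against 372 and 61 without a filter on low counts, 120 and 17 at a mean count of at least 50, 747 and 223 with the DESeq2 Wald test and 48 and 6 with limma-voom. Leaving out 1 library gave 8 to 2278 higher and 0 to 2024 lower, the upper values again without tamoxifen 4. Of 506 comparisons over 39 named genes, 479 kept their side of the threshold, 12 lost a call and 15 gained one, 13 of these without tamoxifen 4, and no called direction turned. Sqor and Prodh lost theirs with limma-voom and in each fit without 1 library other than tamoxifen 4. For 13 uncalled genes the sign of the estimate changed, 31 times in all.

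Only the numbers 1 and 4 occur in both groups. Same-numbered libraries correlated in their deviations at -0.13 and 0.06, so no pairing was detected, and the labels give none. With the replicate block, on 1 residual degree of freedom, 215 genes were higher and 26 lower, 0 members were called and the members' median change was 0.01. Alternatives on rows of mitochondrial DNA were not run, as the table analysed holds no such row. The 6 members that were not tested had 0 to 5 counts in a library. Depth limits the few tested members with under 100 counts per library.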

Other observations

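Mitochondrial translation and the tricarboxylic acid cycle were read from the same fit. Of 78 mitochondrial ribosomal proteins, which translate the mitochondrially encoded subunits, all were tested and 67 had a negative log2 fold change (5805 of 11614 among all tested genes). Their median was -0.09, with 0 called higher and 0 lower, beside 1.75% and 0.267% of all tested genes. At an unadjusted p under 0.05 there was 1, beside 20.6% of all tested genes. That gene, Mrpl34, had 89.3 ± 2.67 CPM in oil and 75.3 ± 7.91 CPM in tamoxifen (SD, n = 3 each), with -0.25 as its log2 fold change and an edgeR adjusted p of 0.221. Without tamoxifen 4, 18 of the 78 were called lower and 0 higher, in a fit that called 17.1% of all genes lower and 19.2% higher. The 18 tested genes of the tricarboxylic acid cycle had a median of -0.07, with 12 negative and 0 called. Idh3a, a subunit of NAD-dependent isocitrate dehydrogenase, had 245, 224 and 245 CPM in oil and 136, 133 and 221 CPM in tamoxifen 1, 2 and 4, so the groups did not overlap and tamoxifen 4 lay close to oil (log2 fold change -0.54, edgeR adjusted p = 0.183). Without tamoxifen 4, 5 of the 18 were called lower and 0 higher, beside the same 17.1% and 19.2% of all genes.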
